A study of Rattus norvegicus with 9 samples.

Results

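C-type lectin receptors are membrane proteins of phagocytes that bind sugars and related ligands through a shared lectin fold. Some of them activate the cell through the kinase Syk and the adaptor Card9, and others recruit phosphatases through an inhibitory tail motif and restrain it. On monocytes, macrophages and dendritic cells they are known for sensing fungi, mycobacteria and dead cells. The group examined here was a list of 9 rat genes, and its members on the array were the probe sets annotated with exactly 1 symbol from that list. Of the 9 genes, 6 had such a probe set (Clec4a, Clec4a1, Clec4a3, Clec7a, Clec10a and Clec12a), each with 1 probe set, so that 6 of 31099 probe sets were followed. Clec4a2, Clec4d and Clec4e had none and are not analysed here.

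CD68+ cells of male Wistar rats were measured in 3 groups of 3 arrays. Blood cells were selected from mononuclear cells and used without culture, in vitro activated cells (called cultured cells here) were blood CD68+ cells kept for 3 days on PTFE coated with fibrinogen (FG), and foreign body reaction (FBR) cells were selected from the tissue on photo-oxidized bovine pericardium patches kept in the peritoneal cavity for 3 days. Release from tissue with enzymes is described for the FBR cells only. In both comparisons of FBR cells, with blood and with cultured cells, this step and the group therefore cannot be told apart. No group was cultured without fibrinogen, so that fibrinogen, PTFE, the medium and the time in culture cannot be told apart either. The labels call the replicates biological, without giving the number of animals behind each array or their age, and the same 3 arrays of a group serve in each comparison that holds it. Values are linear MAS5 intensities (signals), and changes are log2 fold changes of the signal plus 16 from limma, called at a Benjamini-Hochberg adjusted p under 0.05 over all probe sets.

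The arrays were checked for the labelled cell type before the receptors were read. Of 10 macrophage markers 6 were measured on all arrays, and their summed signal was 9443 to 33838 in blood, 47913 to 60484 in cultured and 61052 to 76147 in FBR cells. The sum holds Cd68, the antigen used for the selection. It also holds Cd163, which was 10.6, 5.57 and 31.3 in cultured and 6557, 12892 and 10837 in FBR cells. From cultured to FBR cells 1 of 8 macrophage markers with a value was called higher and 0 lower. B cell markers (5 of 8 measured on all arrays) summed to 26513 to 36850 in blood, 223 to 1692 in cultured and 41.5 to 155 in FBR cells. NK cell markers (8 of 8) summed to 2748 to 8252 in blood, and to between 265 and 426 in the other groups. Among the blood arrays replicate 2 stood apart: its signal was 3524 for Cd68, against 11741 and 8449.5 on replicates 1 and 3, and 1956 for the macrophage receptor Csf1r, against 7281 and 5166. On this array the NK cell markers summed to 8252, against 2748 and 4389.7. All 6 receptors were also lowest on blood replicate 2 among the blood arrays. In such bulk samples fewer cells of a type and less RNA per cell cannot be told apart.

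Cultured cells differed from blood cells in 4 of the 6 receptors, where Clec4a, Clec7a and Clec12a were higher and Clec10a was lower. Over all probe sets 24.8% were called in this comparison, 11.4% higher and 13.4% lower. FBR cells differed from blood cells in 2 receptors, Clec7a and Clec10a, both higher, where 30.9% of all probe sets were called, 10.9% higher and 20.0% lower. Between FBR and cultured cells 3 receptors differed, Clec4a and Clec12a lower and Clec10a higher in FBR cells, against 22.5% of all probe sets, 7.81% higher and 14.7% lower. Clec4a1 and Clec4a3 were called in no comparison. The groups did not overlap for 4 receptors in the first comparison, 2 in the second and 4 in the third, where 38.8%, 47.5% and 41.5% of all probe sets measured on the arrays compared did not overlap.

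**Figure D1:**
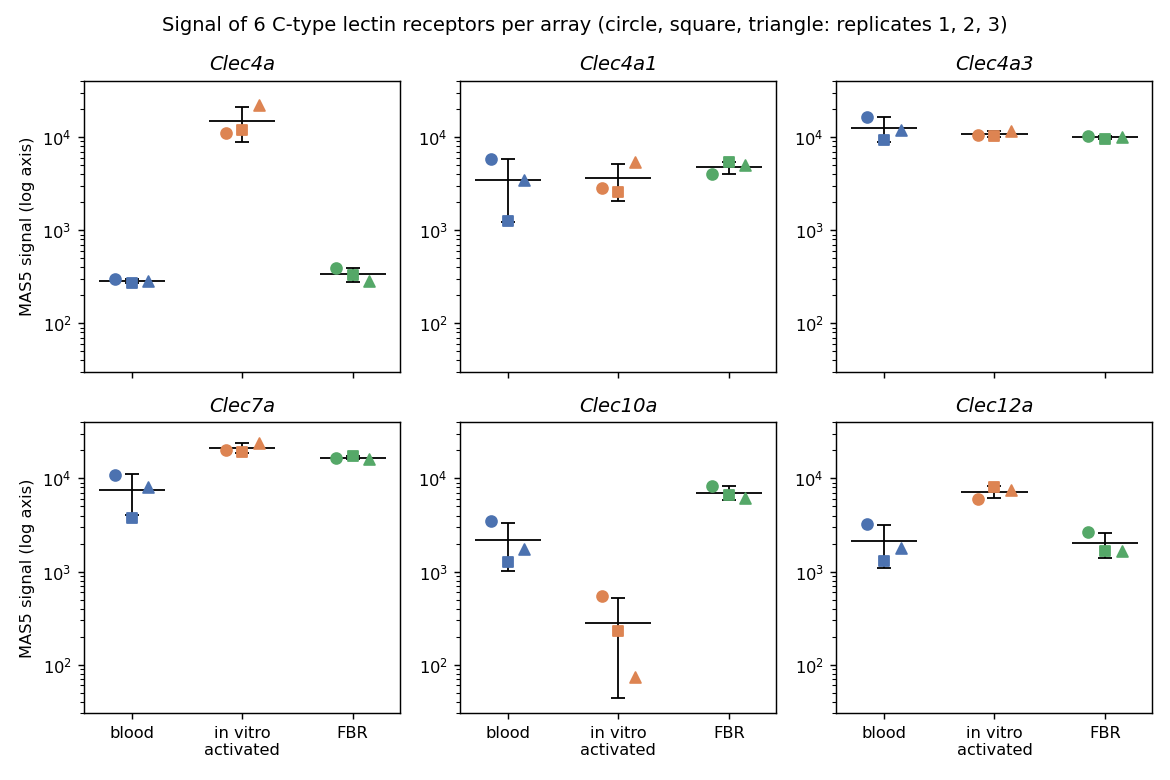
MAS5 signal of 6 C-type lectin receptors (vertical log axis) on the 3 arrays of each group, with the group mean as a line and the SD as a bar. Clec4a stands far above the other groups on the in vitro activated arrays, while Clec10a is lowest there and highest on the FBR arrays.

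Clec4a, the rat gene also called Dcir1 or Clecsf6, belongs to the dendritic cell immunoreceptors, whose human member carries an inhibitory motif in its tail. Its signal was 298, 269.6 and 285 on the blood arrays, 10960.3, 12057 and 21847 on the cultured arrays, and 398, 334 and 283 on the FBR arrays. Every cultured array lay far above all 6 others, and the blood and FBR arrays overlapped. The mean rose 52.6-fold from blood to cultured cells, a log2 fold change of 5.57 (standard error 0.29, adjusted p = 1.09e-05 from limma), which ranked 28 of 31099 from the highest. FBR cells were below cultured cells by a log2 fold change of -5.34 (standard error 0.29, adjusted p = 7.26e-06, limma), which ranked 5 from the lowest. Between FBR and blood cells the log2 fold change was 0.23 with a 95% interval of -0.42 to 0.88 (adjusted p = 0.625, limma). Blood replicate 2, with the lowest Cd68, gave nearly the same Clec4a signal as the other blood arrays, which were higher by a factor of 1.08 on average.

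Clec4a lies in a row of related genes on chromosome 4 of the GRCr8 assembly, in the order Clec4a1, Clec4a3, Clec4a2, Clec4a, Clec4b2, Clec4d and Clec4e. Clec4a1 and Clec4a3 (also Dcir4 and Dcir3) are therefore the measured neighbours of the gene that changed most. The promoter windows of Clec4a, of its neighbour Clec4a3, and of Clec12a, which was also higher in cultured than in the other cells, are shown for comparison. They are from RefSeq (GRCr8, all on the plus strand), from 250 bases before to 50 bases after the start, at chr4:158100365-158100664, chr4:157886508-157886807 and chr4:164483912-164484211, with matches to the searched motifs in capitals.
Clec4a: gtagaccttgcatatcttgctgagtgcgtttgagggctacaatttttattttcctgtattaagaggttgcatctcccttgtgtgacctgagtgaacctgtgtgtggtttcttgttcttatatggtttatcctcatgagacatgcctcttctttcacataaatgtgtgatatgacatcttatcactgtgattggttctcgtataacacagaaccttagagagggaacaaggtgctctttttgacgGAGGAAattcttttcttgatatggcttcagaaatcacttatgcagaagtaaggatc
Clec4a3: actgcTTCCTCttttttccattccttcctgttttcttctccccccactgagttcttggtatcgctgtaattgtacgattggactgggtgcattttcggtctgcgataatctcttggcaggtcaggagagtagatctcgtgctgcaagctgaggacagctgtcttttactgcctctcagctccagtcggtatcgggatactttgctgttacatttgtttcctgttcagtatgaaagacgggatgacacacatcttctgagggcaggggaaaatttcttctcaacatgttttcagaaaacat
Clec12a: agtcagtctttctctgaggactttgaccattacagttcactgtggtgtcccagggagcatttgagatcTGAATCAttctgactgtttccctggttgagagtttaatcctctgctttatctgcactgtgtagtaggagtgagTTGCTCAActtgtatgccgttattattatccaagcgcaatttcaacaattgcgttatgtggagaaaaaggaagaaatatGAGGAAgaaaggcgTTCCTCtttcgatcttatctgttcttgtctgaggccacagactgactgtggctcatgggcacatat
Both strands were searched for AP-1 (TGANTCA), the core of PU.1 (GAGGAA) and a longer PU.1 form that contains it (AGAGGAAGT), NF-κB (GGG and CC with any 5 bases between), C/EBP (TTGCNNAA), the E-box CACGTG, GAS (TTCNNNGAA) and the TATA box (TATAAA). The PU.1 core matched once in Clec4a, 6 bases before the start, once in Clec4a3 and at 2 places in Clec12a, and 27.6% of 33469 RefSeq promoter windows hold it. Clec12a also held 1 AP-1 match, present in 7.33% of windows, and 1 C/EBP match, present in 10.6%. The Clec4a1 window held 3 PU.1 core matches and the Clec7a window none of these motifs, and no entry for Clec10a was found in the table. A match is a description of the letters and not of a bound site.

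No change of Clec4a1 or Clec4a3, the measured neighbours of Clec4a, passed the test. Clec4a1 had signals of 5780.1, 1242 and 3442 in blood, 2867, 2588 and 5431 in cultured, and 3970.4, 5341 and 4963 in FBR cells. All of these values but that of FBR replicate 2 had their decimal point restored. All 3 groups overlapped, with the widest spread in blood. Its log2 fold change was 0.23 for cultured over blood cells (95% interval -0.89 to 1.35), 0.69 for FBR over blood cells (-0.43 to 1.81), and 0.46 for FBR over cultured cells (-0.66 to 1.58), with adjusted p of 0.784, 0.353 and 0.561 (limma). Without blood replicate 2 the value was -0.38 for cultured over blood cells (adjusted p = 0.541) and 0.082 for FBR over blood cells (adjusted p = 0.911, limma).

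Clec4a3 was 16574, 9269.6 and 11779.7 in blood, 10423, 10215 and 11656 in cultured, and 10329, 9535 and 9932 in FBR cells. The values of blood replicate 2 and of FBR replicates 2 and 3 had their decimal point restored. The blood arrays spanned the range of the other groups, which lay close together. The log2 fold changes were -0.18 (95% interval -0.75 to 0.39), -0.30 (-0.86 to 0.27) and -0.11 (-0.68 to 0.45) in the 3 comparisons, with adjusted p from 0.442 to 0.789 (limma). After quantile normalization the value for FBR over blood cells was -0.87 and passed (adjusted p = 0.0278, limma), and with each array centred on its median the value was 0.07.

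The difference in response between neighbours was tested on the log2 ratio of their signals on each array, in 9 comparisons. In cultured over blood cells the log2 fold change of Clec4a exceeded that of Clec4a3 by 5.75 ± 0.33 (standard error) and that of Clec4a1 by 5.34 ± 0.61. In both cases all 3 cultured arrays lay above all 3 blood arrays (exact two-sided permutation p = 0.1, the smallest that 3 arrays against 3 allow; 0.18 after Benjamini-Hochberg adjustment). From cultured to FBR cells Clec4a changed by -5.23 ± 0.28 relative to Clec4a3 and by -5.80 ± 0.26 relative to Clec4a1, again without overlap and with the same exact permutation p of 0.1. Between Clec4a1 and Clec4a3 the difference was 0.41 ± 0.50 in cultured over blood cells, where the arrays overlapped (exact permutation p = 0.6), and 0.99 ± 0.45 in FBR over blood cells, where they did not (exact permutation p = 0.1). Probe sequences were not used here, so that cross-hybridization among these related genes was not tested.

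Clec7a encodes Dectin-1, the receptor for fungal beta-glucan that activates Syk and Card9. Its signal was 10910.0, 3792 and 8108 in blood, 20204, 19370.4 and 24209 in cultured, and 16456, 17378 and 16144 in FBR cells. All 6 arrays of the other groups lay above all blood arrays, and the FBR arrays lay below the cultured arrays without overlap. The log2 fold change over blood was 1.60 in cultured cells (adjusted p = 0.00816), against 1.26 in FBR cells (adjusted p = 0.0205), each with a standard error of 0.35 (limma). The step from cultured to FBR cells was -0.35 (95% interval -1.13 to 0.44) and did not pass (adjusted p = 0.53, limma). The call of FBR over blood cells was lost when any 1 FBR array was left out (adjusted p = 0.0534 to 0.0636) and after quantile normalization (0.71, adjusted p = 0.207). Without blood replicate 2 it passed at 0.82 (adjusted p = 0.0333, limma), and cultured over blood cells was 1.17. Of the blood values 2 had their decimal point restored, and with only blood replicate 1 kept neither comparison with blood passed (0.95, adjusted p = 0.0896, and 0.61, adjusted p = 0.235, limma).

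Cd68, the antigen used for the selection, was the gene whose pattern was most like that of Clec7a, with a Pearson correlation of 0.995 of the log2 signals over the 9 arrays, among 8168 genes. Cd68 was 28965, 23892 and 38245 in cultured and 20075, 24802 and 20469.5 in FBR cells. When every array was scaled to its Cd68 level, a step chosen after seeing the data that moved the median of all probe sets to -2.03 and -1.79, Clec7a was -0.47 (adjusted p = 0.399) in cultured over blood cells and -0.36 (adjusted p = 0.533) in FBR over blood cells (limma). With so close a correlation, values near 0 restate the likeness to Cd68. The test is also against 0 and not against the shifted median, so that the lost calls decide nothing about Clec7a. Under the same scaling Clec4a was still higher in cultured than in blood cells, by 3.49, and lower in FBR than in cultured cells, by a log2 fold change of -4.88. Whether the share of CD68+ cells in blood had a part in the higher Clec7a signal of the other groups was not tested.

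**Figure D2:**
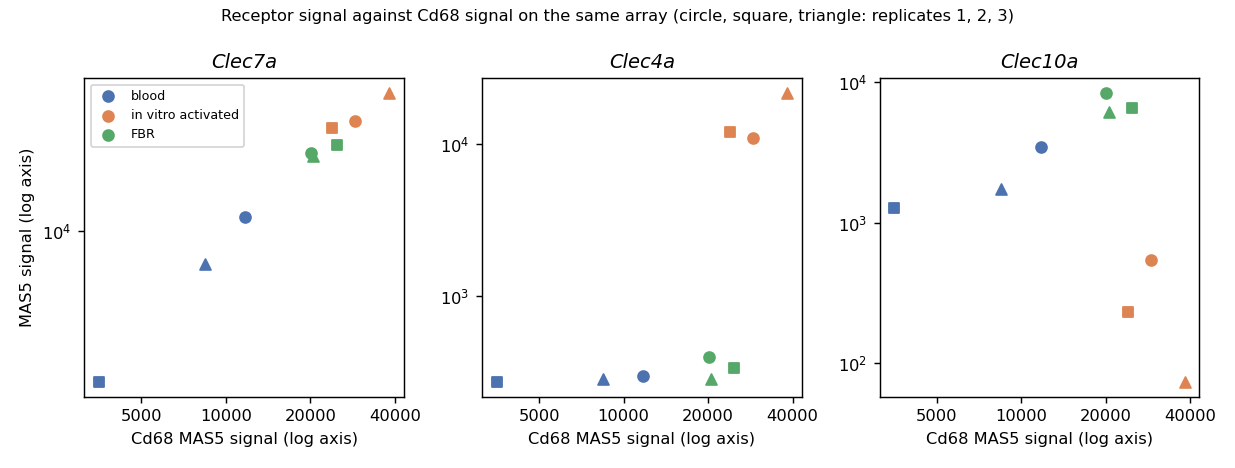
Signal of Clec7a, Clec4a and Clec10a (vertical log axis) against the Cd68 signal of the same array (horizontal log axis), with 1 point per array coloured by group. The Clec7a points lie close to 1 line through all groups, whereas Clec4a and Clec10a separate the in vitro activated arrays from the FBR arrays.

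Clec12a encodes an inhibitory receptor with a phosphatase-recruiting tail motif, known as MICL, that in human and mouse senses uric acid crystals from dead cells. All 9 of its values had their decimal point restored. Its signal was 3243, 1289 and 1811 in blood, 6085, 8141 and 7425 in cultured, and 2689.8, 1650.3 and 1672 in FBR cells. The cultured arrays were above all others, and blood and FBR arrays overlapped. Against blood the log2 value was 1.86 in cultured cells (adjusted p = 0.00388, standard error 0.35), whereas FBR cells gave -0.01 (95% interval -0.80 to 0.78, adjusted p = 0.989), and FBR cells were below cultured cells by -1.87 (adjusted p = 0.00456, limma). Scaled to Cd68, FBR over cultured cells was -1.41 and no longer passed (adjusted p = 0.15, limma). Under that scaling Clec12a was -0.22 in cultured and -1.63 in FBR over blood cells, where the median of all probe sets was -2.03 and -1.79.

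Clec10a encodes the macrophage galactose-type lectin, which binds terminal galactose and N-acetylgalactosamine and in mouse is widely used as a marker of alternative activation. Its signal was 3485, 1283 and 1730.4 in blood, 545, 232 and 73.3 in cultured, and 8382, 6596 and 6173 in FBR cells. All blood values and those of cultured replicate 2 and FBR replicates 2 and 3 had their decimal point restored. With restored cells left missing the comparisons with blood gave no value. The 3 groups followed each other without overlap, with FBR highest and cultured lowest. Cultured replicate 3, which had the highest Clec4a and Cd68 signals, had the lowest Clec10a signal. FBR cells exceeded cultured cells 24.9-fold in the mean, a log2 fold change of 4.92 (standard error 0.59, adjusted p = 0.000435, limma) that ranked 70 of 31099 from the highest. Cultured cells were below blood cells by a log2 fold change of -3.11 (standard error 0.59, adjusted p = 0.00382, limma). Both calls held when any 1 array was left out, but their size rested on the cultured arrays: without cultured replicate 1 the values were 5.56 and -3.74, and without cultured replicate 3 they were 4.23 and -2.42.

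The higher Clec10a signal in FBR than in blood cells was a log2 fold change of 1.81 (standard error 0.59, 95% interval 0.50 to 3.12, adjusted p = 0.0399, limma). It no longer passed without blood replicate 2 (1.50, adjusted p = 0.143), without blood replicate 3 (adjusted p = 0.103), without cultured replicate 2 (adjusted p = 0.0554) or when any 1 FBR array was left out (adjusted p = 0.0779 to 0.113). With a pseudocount of 1 its adjusted p was 0.0845, and after quantile normalization 0.1. Scaled to Cd68 the value was 0.19 (adjusted p = 0.775), while cultured over blood cells was -5.18 and FBR over cultured cells 5.38 (limma).

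**Figure D3:**
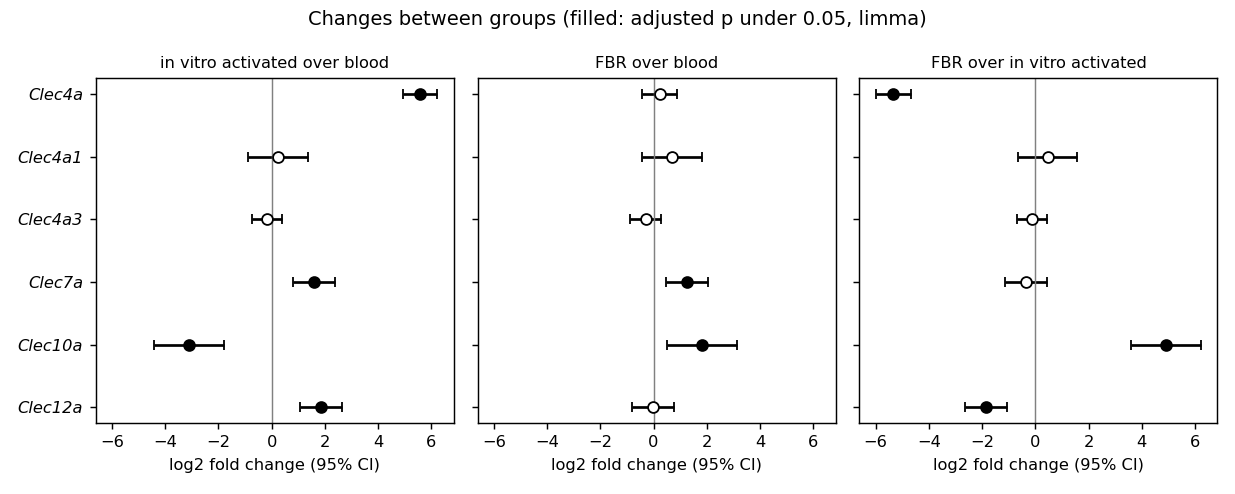
Log2 fold change (horizontal axis) of the 6 receptors in each of 3 comparisons, with the 95% confidence interval from limma as a bar and filled points for an adjusted p under 0.05. Clec4a and Clec10a have the largest values and opposite signs in the comparisons that hold the in vitro activated arrays, and the intervals of Clec4a1 and Clec4a3 cover 0 in each.

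Genes with the pattern most like each other receptor were sought in the same way, and these correlations describe the 9 arrays, which fall into 3 groups and measure all genes at once. For Clec4a they were Dst (0.990), Bend6 (0.990) and Them4 (0.988). Klf4, a transcription factor of monocytes and macrophages, was closest to Clec10a (0.989), followed by Sfn and Icoslg (both 0.977). The mean signal of Klf4 was 8576 in blood, 1079.8 in cultured and 18982 in FBR cells. For Clec12a they were Pidd1 (0.984), Colec12 (0.976) and Acvr1 (0.976), and Colec12 encodes a scavenger receptor that itself carries a C-type lectin domain. After Cd68, Clec7a was most like Napa (0.990) and Dnajc22 (0.988). The values were lower for Clec4a1 (Kcnab2, Tnfsf13 and Ssbp4, 0.928 to 0.933) and Clec4a3 (Fam210b, Ssh1 and Brca2, 0.923 to 0.932).

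Fewer adaptors and kinases of these receptors were higher than lower after culture. Of 27 listed genes 23 were measured, of which 0 were higher and 5 lower in cultured than in blood cells (median log2 fold change -0.33, against 0.13 over all genes, of which 15.4% were higher and 12.2% lower). The 2 largest decreases were in Pik3cd (-1.79, adjusted p = 0.00339), a lipid kinase subunit of leukocytes, and Plcg2 (-1.40, adjusted p = 0.00914), the phospholipase downstream of Syk. In FBR over blood cells 4 were higher and 6 lower (median -0.31, against -0.09 over all genes, of which 14.6% were higher and 19.2% lower). Between FBR and cultured cells 1 was higher and 2 were lower (median -0.15, against -0.23, with 8.88% and 16.7%), namely Cblb (2.05, adjusted p = 0.000619), a ubiquitin ligase that limits Syk signaling, and Ptpn11 (-1.50) and Sh2b3 (-0.87). Cblb had no value on FBR replicate 3 and was 4769 and 5320 on FBR replicates 1 and 2. The first count rested on single arrays, and without blood replicate 1 it was 7, with 3 higher and 4 lower. It reached 9 with a pseudocount of 64 (2 higher and 7 lower). It was 3 without blood replicate 3, without cultured replicate 1 or without FBR replicate 2 or 3. The second was 6 without FBR replicate 1, and the last was 9 (7 higher and 2 lower) without blood replicate 2.

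Fcer1g, the gamma chain that Dectin-2 family receptors and Mincle signal through, had signals of 20705, 9096 and 15425 in blood, 26962, 21801 and 34578 in cultured, and 34266, 34785 and 29256 in FBR cells. Its blood arrays lay below all others, and the other groups overlapped. On the log2 scale it rose by 1.19 in FBR over blood cells (adjusted p = 0.0172), and its value in cultured over blood cells was 0.93 (adjusted p = 0.0599, limma). The call in FBR over blood cells was lost without FBR replicate 1 (adjusted p = 0.0527) or 2 (adjusted p = 0.0586), and cultured over blood cells passed without blood replicate 1 (1.20, adjusted p = 0.0289, limma). Tyrobp, the adaptor DAP12, was measured on only 2 blood arrays, with 3894 on replicate 1 and 574 on replicate 2, the array that stood apart. It was 3061, 3021 and 3429 in cultured, and 10281, 15334 and 7190.0 in FBR cells. Its log2 fold change in FBR over blood cells was 2.78 (adjusted p = 0.0114, limma), and 1.42 against blood replicate 1 alone. In cultured over blood cells it was 1.07 (adjusted p = 0.292, limma). Against blood replicate 1 alone that value was -0.30, and against blood replicate 2 alone 2.43. In FBR over cultured cells it was 1.71 (adjusted p = 0.0702, limma).

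Ptpn6, the phosphatase SHP-1 recruited by inhibitory receptors, had signals of 7887, 5617 and 7598 in blood, 3014, 4935 and 3768 in cultured, and 2799.7, 2619 and 2838 in FBR cells. All blood arrays lay above all others. It was lower than in blood by -0.86 in cultured cells (adjusted p = 0.0344), whereas FBR cells gave -1.33 (adjusted p = 0.00296, limma). The first of these calls was lost without blood replicate 1 or 3, cultured replicate 1 or 3, or FBR replicate 2 or 3 (adjusted p = 0.0544 to 0.111). Syk (-0.52 and -0.77, the latter with 2 FBR arrays measured), Card9 (0.15 and -0.11) and Bcl10 (-0.46 and 0.38) did not pass in either comparison with blood (without blood replicate 2, Card9 was -0.64 and -0.89, adjusted p = 0.282 and 0.121), and Malt1 had no probe set with 1 symbol. All 5 measured B cell markers fell against blood in both groups (median log2 fold changes of -5.30 and -7.15), as did 6 and 7 of 8 NK cell markers. Lymphocytes also express Ptpn6, Plcg2 and Pik3cd, and their part in these decreases was not tested.

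Of 40 other C-type lectin receptors and lectin-domain proteins 29 were measured, with 4 higher and 6 lower in cultured than in blood cells (median 0.02), 6 and 6 in FBR than in blood cells (median 0.09), and 5 and 1 in FBR than in cultured cells (median 0.12). The medians over all genes were 0.13, -0.09 and -0.23, with the shares called as above. Olr1, the receptor for oxidized lipoprotein, rose over blood by a log2 fold change of 3.82 in cultured and 5.81 in FBR cells. Mrc1, the mannose receptor, rose by 3.54 and 4.91. The largest decreases were in receptors of lymphocytes that the marker lists also hold, Fcer2 of B cells (-5.30 and -6.92) and Klrd1 of NK cells (-5.13 and -6.03). Between FBR and cultured cells Asgr2, a subunit of the asialoglycoprotein receptor that also binds galactose, was higher (3.54, adjusted p = 5.41e-05), as was Thbd (2.65), and Colec12 was lower (-3.08, adjusted p = 0.00099, limma). Asgr2 is the gene next to Clec10a on chromosome 10.

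Most of the listed cytokines and other effectors that C-type lectin receptors can induce were higher in FBR cells. The authors had already reported Il1b, Il6, Il10, Tnf, Csf2, Csf3, Ccl4 and Rela as overexpressed by FBR cells in these data. The list was chosen with earlier results known, so that its counts are a description and not independent evidence. Of 25 listed genes 23 were measured, and 4 were higher and 5 lower in cultured than in blood cells (median -0.15), 16 higher and 3 lower in FBR than in blood cells (median 3.46), and 15 higher and 3 lower in FBR than in cultured cells (median 2.33). Over all genes the medians were 0.13, -0.09 and -0.23, and 15.4% were called higher and 12.2% lower in the first comparison, 14.6% and 19.2% in the second, and 8.88% and 16.7% in the third. Tnf rose by 8.46 and Ptgs2, the inducible cyclooxygenase, by 7.78 over blood in FBR cells. Il6 rose by 8.32 and Ptgs2 by 8.24 over cultured cells. In cultured cells Egr2 (5.26) and Tnf (3.10) rose over blood, while Il6 (-2.33) and Il1b (-2.07) fell. Nfatc1 and Nfatc2, transcription factors downstream of Dectin-1, were lower in FBR than in blood cells (-2.35 and -3.09). They were also lower in FBR than in cultured cells (-1.93 and -1.03). In cultured over blood cells Nfatc2 fell (-2.06) and Nfatc1 did not pass (-0.42). B cell and NK cell markers fell against blood in both groups, and the part of lymphocytes in the Nfatc1 and Nfatc2 decreases was not tested. Many of the listed genes respond to other receptors too, and the part of C-type lectin receptors in their changes was not tested.

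Markers of other cells also differed in these comparisons. Of 9 T cell markers 5 were lower in cultured and 6 in FBR than in blood cells, and 0 were higher. Dendritic cell markers (6 of 10 measured) summed to 4319 to 5156 in blood, 1977 to 3833 in cultured and 2375 to 3973 in FBR cells. Against blood 0 of them were called higher and 1 lower in cultured cells, and 1 higher and 1 lower in FBR cells. Of 8 measured neutrophil markers 4 rose and 0 fell from cultured to FBR cells, and 1 rose and 1 fell from blood to FBR cells. Their summed signal was 3380.2 to 17754 in blood, 261 to 3529 in cultured and 3255 to 3704 in FBR cells. Lcn2, a granule protein of neutrophils that macrophages can also make, was 2.76, 8.51 and 16.9 in blood, 4.40, 2.35 and 14.9 in cultured, and 484, 418 and 304 in FBR cells. Fcnb of the same list went the other way from blood to FBR cells. It was 15530, 2794 and 14188 in blood, 49.4, 731 and 2738 in cultured, and 928, 178 and 234 in FBR cells. Camp, Mmp8 and Cxcr2 were low in all groups. Of 8 measured fibroblast and mesothelial markers 3 rose and 0 fell from blood to FBR cells, and their sum (7 measured on all arrays) was 176 to 187 in blood, 209 to 512 in cultured and 370.0 to 1094 in FBR cells. The part of these cells in the effector signals was not tested.

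**Figure D4:**
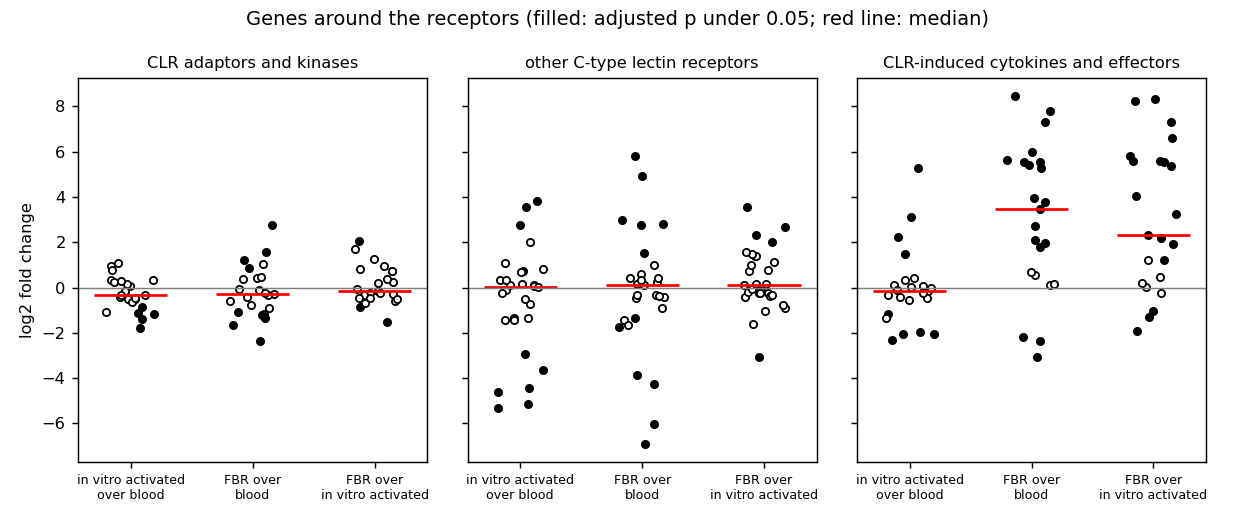
Log2 fold change (vertical axis) of each measured gene of 3 lists in the 3 comparisons, with filled points for an adjusted p under 0.05 and a red line at the list's median. The effector list has medians of 3.46 and 2.33 in the comparisons of FBR cells, against -0.31 and -0.15 for the adaptor list.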

How the data were processed

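RNA of CD68+ cells was amplified in 2 rounds and hybridized to Affymetrix Rat Genome 230 arrays. The authors deposited a MAS5 intensity for each of 31099 probe sets on 9 arrays. Their tables of RMA log2 fold changes and p-values are not used here.

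Many deposited cells had lost their decimal point. Of 279891, 83.44% still had it. Another 15.45%, written as longer whole numbers, were divided by 1000, 0.07% were converted back from dates, and 1.04% could be read in several ways and were dropped. Of 54 cells of the receptors 26 still had the point, 28 were divided and 0 were dropped. After this step every array's trimmed mean was 498.9 to 501.5, and same-group arrays correlated at 0.931 to 0.976, against 0.75 to 0.814 as deposited. Median signals were 97.3 to 102.8 in blood, 87.0 to 110.1 in cultured and 69.5 to 77.3 in FBR cells.

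Symbols came from the platform annotation (20832 probe sets with 1 symbol, 436 with several, 9831 with none). A gene with several probe sets is given by the one with the highest mean signal. Group means of log2(signal + 16) were compared with limma 3.58.1 (R 4.3.3) over all 9 arrays with 6 residual degrees of freedom and Benjamini-Hochberg adjustment. The fit was first run on simulated arrays with independent values and few changed probe sets. That run checks the code and not the calls made here. A fold change on this scale understates that of low signals. Tables and figures used Python 3.11.15, pandas 2.3.3, scipy 1.17.1 and matplotlib 3.10.9.

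The members and lists were chosen with earlier results of these data known. All receptors are named, with the 2 largest called changes per direction of each list, 7 fixed adaptors and, per receptor, the 3 genes of most similar pattern among those reaching a signal of 200. Alternatives were pseudocounts of 1 and 64, a minimum mean signal of 50, quantile normalization, median centring and fits of only the 6 arrays compared. Others were trend with robust eBayes, array weights, the replicate number as a block, leaving out single arrays, stricter thresholds and dropping the restored cells. Scaling to Cd68 was added after seeing the data. Each receptor had only 1 probe set, so that averaging probe sets could not differ from the main fit. The number of arrays limits the precision, and p-values measure only the spread between these arrays, which may be technical in part.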

Additional observations from a re-analysis of the deposited data

How the results depend on the processing

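Of 18 fold changes (6 receptors in 3 comparisons), 10 kept their direction and their side of the threshold in each alternative that gave a value, scaling to Cd68 aside. Restored cells left missing gave no value where a group lost all its arrays. They left Clec7a with 1 blood array, taken to vary like the other arrays.

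The count of receptors called in cultured over blood cells, 4, fell to 1 (of 3 receptors left to test) with restored cells left missing and to 1 at an adjusted p under 0.001. In FBR over blood cells the count of 2 was 1 with a pseudocount of 1, 1 after quantile normalization, 0 (of 3) with restored cells left missing, and 0 at an adjusted p under 0.01 and under 0.001. It ranged from 0 to 2 when single arrays were left out. With restored cells left missing Clec7a was 0.95 in cultured and 0.61 in FBR over blood cells, neither passing. Quantile normalization gave, in FBR over blood cells, -0.87 for Clec4a3 (now passing), 0.71 for Clec7a and 1.60 for Clec10a (both no longer passing), and a pseudocount of 1 gave 1.82 for Clec10a. Signs turned with array weights for Clec4a1 in cultured over blood cells (-0.23), and with median centring for Clec4a3 in FBR over blood (0.070) and FBR over cultured cells (0.23) and for Clec12a in FBR over blood cells (0.36). The cause was not tested.

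With single arrays left out, values in cultured over blood cells ranged from -0.38 to 0.72 for Clec4a1, from -0.38 to 0.040 for Clec4a3 and from -3.74 to -2.42 for Clec10a. In FBR over blood cells they ranged from 0.082 to 1.18 for Clec4a1, 0.82 to 1.58 for Clec7a, 1.50 to 2.22 for Clec10a and -0.31 to 0.35 for Clec12a, and in FBR over cultured cells from 4.23 to 5.56 for Clec10a.

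Scaling to Cd68, chosen after seeing the data, shifted the median of all probe sets to -2.03, -1.79 and 0.21. In cultured over blood cells it gave -1.85 for Clec4a1, -2.26 for Clec4a3, -0.47 for Clec7a and -0.22 for Clec12a. In FBR over blood cells it gave -1.39 for Clec4a, -0.93 for Clec4a1, -1.91 for Clec4a3, -0.36 for Clec7a, 0.19 for Clec10a and -1.63 for Clec12a. In FBR over cultured cells it gave 0.34 for Clec4a3, 0.11 for Clec7a and -1.41 for Clec12a.

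With the replicate number as a block no receptor's call changed, for example 1.26 for Clec7a (adjusted p = 0.0255, limma) in FBR over blood cells. Arrays of the same number did not deviate together more than others (correlations of -0.065 to 0.07, against -0.044 to 0.077 for different numbers). Such weak correlations gave no sign of pairing but cannot exclude it, and the labels do not say whether the numbers pair the samples. Over all probe sets the counts called fell from 7722, 9621 and 6992 to 4173, 6003 and 4071 with restored cells left missing (26859, 26853 and 27159 tested), to 4255, 6272 and 3462 at an adjusted p under 0.01 and to 1583, 2781 and 923 under 0.001. The last count was 4380 and 4590 without FBR replicates 2 and 3. With restored cells left missing the list counts fell from 10, 12 and 6 to 5, 7 and 2 for other lectin receptors (22, 23 and 22 genes left to test of 29) and from 5, 10 and 3 to 1, 3 and 1 for adaptors (8, 10 and 8 left of 23). At an adjusted p under 0.01 effectors in cultured over blood cells fell from 9 to 4.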
